A study of Mus musculus with 24 samples.

Results

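10 genes of the mammalian circadian clock and its output, Clock, Per1, Per2, Per3, Cry1, Cry2, Nr1d1, Nr1d2, Dbp and Tef, were followed in MC38 cells under TNF. They are 10 of the 15390 genes in the deposited table. The 10 genes were chosen by name, with their measured responses to TNF already known, so their differences between TNF and untreated cells are given as a description and carry no p. Where one of the 10 is said to pass a threshold under TNF, this only places it among all genes fitted and is no test of it. The other gene lists and the markers were also chosen with earlier results of these data known. Their adjusted p-values and counts under TNF likewise place them among all genes fitted and are no independent test. Within those lists, most genes are named for their small p under TNF. A filter on low values (a log2 value of 0 or more in at least 4 libraries) kept 9 of the 10 and 13272 genes in all. Per2 did not pass it and is given by its values only.

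MC38 is a mouse colon carcinoma line. The cells carried control gRNA 1 or 2 (genotype control) or Ado gRNA 1 or 2 (genotype called Ado KO here). Ado encodes a thiol dioxygenase that acts on cysteamine and on certain proteins with a cysteine at the N terminus. Each of these 4 guide populations was left untreated or received TNF for 1 h or 6 h, in 2 libraries each. The 6 groups, which are control untreated, control with TNF for 1 h, control with TNF for 6 h, Ado KO untreated, Ado KO with TNF for 1 h and Ado KO with TNF for 6 h, therefore held 4 libraries each. Libraries are named by guide and replicate, so that 2-1 is replicate 1 of guide 2. All groups carry a guide, and cells with no guide were not analysed here. The labels give neither a time in culture for the untreated cells nor any step that sets the phase of the clock, so TNF and time in culture cannot be told apart. They also do not say that replicates were separate cultures, so every p-value rests on a spread between libraries that may be technical.

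The clock is a feedback loop of transcription. CLOCK and its partner BMAL1 (encoded by Arntl) bind E-box sequences and drive the genes of their own repressors, the PER and CRY proteins, and of the nuclear receptors REV-ERB alpha and beta (Nr1d1 and Nr1d2), which repress Arntl. The same activators drive Dbp and Tef, whose products are PAR bZIP transcription factors that bind D-box sequences and carry the rhythm to output genes. In cultured fibroblasts TNF is known to lower several E-box driven clock genes, Dbp and the Per genes among them.

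The start of a gene is where such elements are often found, so the sequence before the annotated start is shown for 6 of the genes: Dbp, Tef and Cry2, which were lower at 6 h, and Per1, Cry1 and Per3, which hold a matching element but did not pass the threshold used throughout, a limma adjusted p under 0.05 over all genes tested. Nr1d1 and Clock also hold a match and did not pass, and their sequences are not shown. Sequences are from RefSeq (GRCm38.p6), run 5′ to 3′ on the strand of the gene and stop before any annotated untranslated region. Capitals mark a match to CACGTG (E-box), CACGTT (an E-box variant, which reads AACGTG on the other strand), TTATGTAA or TTACGTAA (D-box) or the NF-kB motif. Both strands were searched, and no matches in the sequences shown overlap each other.
Dbp, chr7:45704997-45705087, plus strand: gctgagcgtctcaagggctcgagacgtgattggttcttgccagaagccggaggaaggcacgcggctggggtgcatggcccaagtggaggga
Tef, chr15:81811164-81811413, plus strand: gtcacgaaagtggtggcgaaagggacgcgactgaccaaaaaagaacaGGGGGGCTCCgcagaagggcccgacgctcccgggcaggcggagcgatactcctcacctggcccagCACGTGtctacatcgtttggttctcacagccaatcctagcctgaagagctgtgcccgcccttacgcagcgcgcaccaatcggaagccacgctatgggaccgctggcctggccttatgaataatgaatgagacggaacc
Cry2, chr2:92434070-92434319, minus strand: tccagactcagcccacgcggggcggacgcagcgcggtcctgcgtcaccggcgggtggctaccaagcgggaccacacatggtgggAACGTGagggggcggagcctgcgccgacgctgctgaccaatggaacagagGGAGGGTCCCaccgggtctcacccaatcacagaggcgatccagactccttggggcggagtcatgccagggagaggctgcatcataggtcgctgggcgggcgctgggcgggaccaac
Per1, chr11:69098699-69098947, plus strand: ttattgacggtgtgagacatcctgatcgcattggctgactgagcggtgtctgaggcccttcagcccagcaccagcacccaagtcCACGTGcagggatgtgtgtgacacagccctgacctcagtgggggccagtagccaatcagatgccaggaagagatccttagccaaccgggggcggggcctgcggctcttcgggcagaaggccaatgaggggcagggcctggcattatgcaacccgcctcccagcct
Cry1, chr10:85185065-85185304, minus strand: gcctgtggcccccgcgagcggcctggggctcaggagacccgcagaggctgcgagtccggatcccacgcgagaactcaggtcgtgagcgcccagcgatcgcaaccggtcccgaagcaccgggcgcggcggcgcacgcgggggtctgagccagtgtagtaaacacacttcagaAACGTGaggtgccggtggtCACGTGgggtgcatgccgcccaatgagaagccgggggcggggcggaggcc
Per3, chr4:151044666-151044915, minus strand: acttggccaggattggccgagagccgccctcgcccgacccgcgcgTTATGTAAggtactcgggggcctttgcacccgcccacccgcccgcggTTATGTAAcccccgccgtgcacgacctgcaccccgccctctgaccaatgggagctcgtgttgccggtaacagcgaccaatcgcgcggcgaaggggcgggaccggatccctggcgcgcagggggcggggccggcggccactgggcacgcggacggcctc

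Windows of 300 bases (250 before to 50 after a start) were found for 9 of the 10 genes, 13 windows in all, and for Per2 none was used. CACGTG stood in 4 of the 13 windows, those of Cry1 (position -60 from the start), Per1 (-166) and 2 windows of Tef (-127 and -138), against 7.15% of 32851 windows of all genes. CACGTT stood in 3 windows, those of Cry1 (-79), Cry2 (-166) and Nr1d1 (-28), against 4.68%. The D-box stood in the window of Per3 at -205 and -158, against 1.06% of all windows. The NF-kB motif stood in windows of Clock (-191), Cry2 (-116) and Tef (-203), against 8.46%. The ROR element TAGGTCA and the cAMP response element TGACGTCA were in 0 of the 13 windows, against 2.61% and 1.79%. The Dbp window, of which 91 bases lie outside an annotated untranslated region, held none of these letters. Sequence outside these windows was not searched, so elements elsewhere in a gene would be missed. A match is a description of letters and not a bound site.

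Values are log2 CPM (counts per fixed total of tags, on the authors' normalised scale) from a 3′ tag assay, which reads 1 stretch near the end of a transcript. Library sizes were not given. If 0.5 tags were added before the logarithm, the lowest value of -3.349 places the depth near 5100000 tags and 1 tag near 0.196 CPM. On that reading Dbp rests on about 3 to 35 tags per library, Per3 on 2 to 18, Clock on 8 to 29, Cry2 on 12 to 34 and Tef on 191 to 405, so the low genes carry wide counting error and a fold change on this scale understates theirs. The TNF labels were checked on Nfkbia, the gene of the NF-kB inhibitor IkB alpha, which limma called in all 4 TNF comparisons and which rose by 3.10 at 1 h and 2.99 at 6 h in control cells and by 3.13 and 3.08 in Ado KO cells. Ado lay between 5.00 and 5.53 log2 CPM over all 24 libraries, and a tag read at the 3′ end need not change with an edit upstream, so its level is no check of the genotype. Of 10 colon epithelial markers, Cdh1, Krt8 and Krt18 were in the table and summed to 0.294 to 3.37 CPM per library, and the other 7 were not analysed here. Of 10 immune markers 6 were in the table, at 6.16 to 20.5 CPM summed, and of 10 endothelial and fibroblast markers 4, at 14.3 to 27.3 CPM summed. The epithelial markers that could be read were thus near the bottom of the scale.

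Under TNF, the output genes Dbp and Tef differed most clearly from untreated cells, at 6 h. Dbp was 2.76-fold lower at 6 h in control cells and 4.15-fold lower in Ado KO cells. The log2 difference of Tef was -0.64 ± 0.09 and -0.56 ± 0.09 (SE), and that of the repressor gene Cry2 was -0.73 ± 0.24 and -0.62 ± 0.24. Per3 was at -0.90 ± 0.46 and -0.89 ± 0.46 and Cry1 at -0.42 ± 0.25 and -0.30 ± 0.25 (SE). The 6 h libraries of both overlapped the untreated ones in each genotype. Per1, Nr1d1 and Nr1d2 lay between -0.26 and 0.42 on the log2 scale at both 6 h comparisons. Of the activator genes, Clock was at 0.64 in control and -0.32 in Ado KO cells. Arntl, which encodes the partner of CLOCK, was at -1.21 ± 0.40 and -0.63 ± 0.40 (SE).

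**Figure D1:**
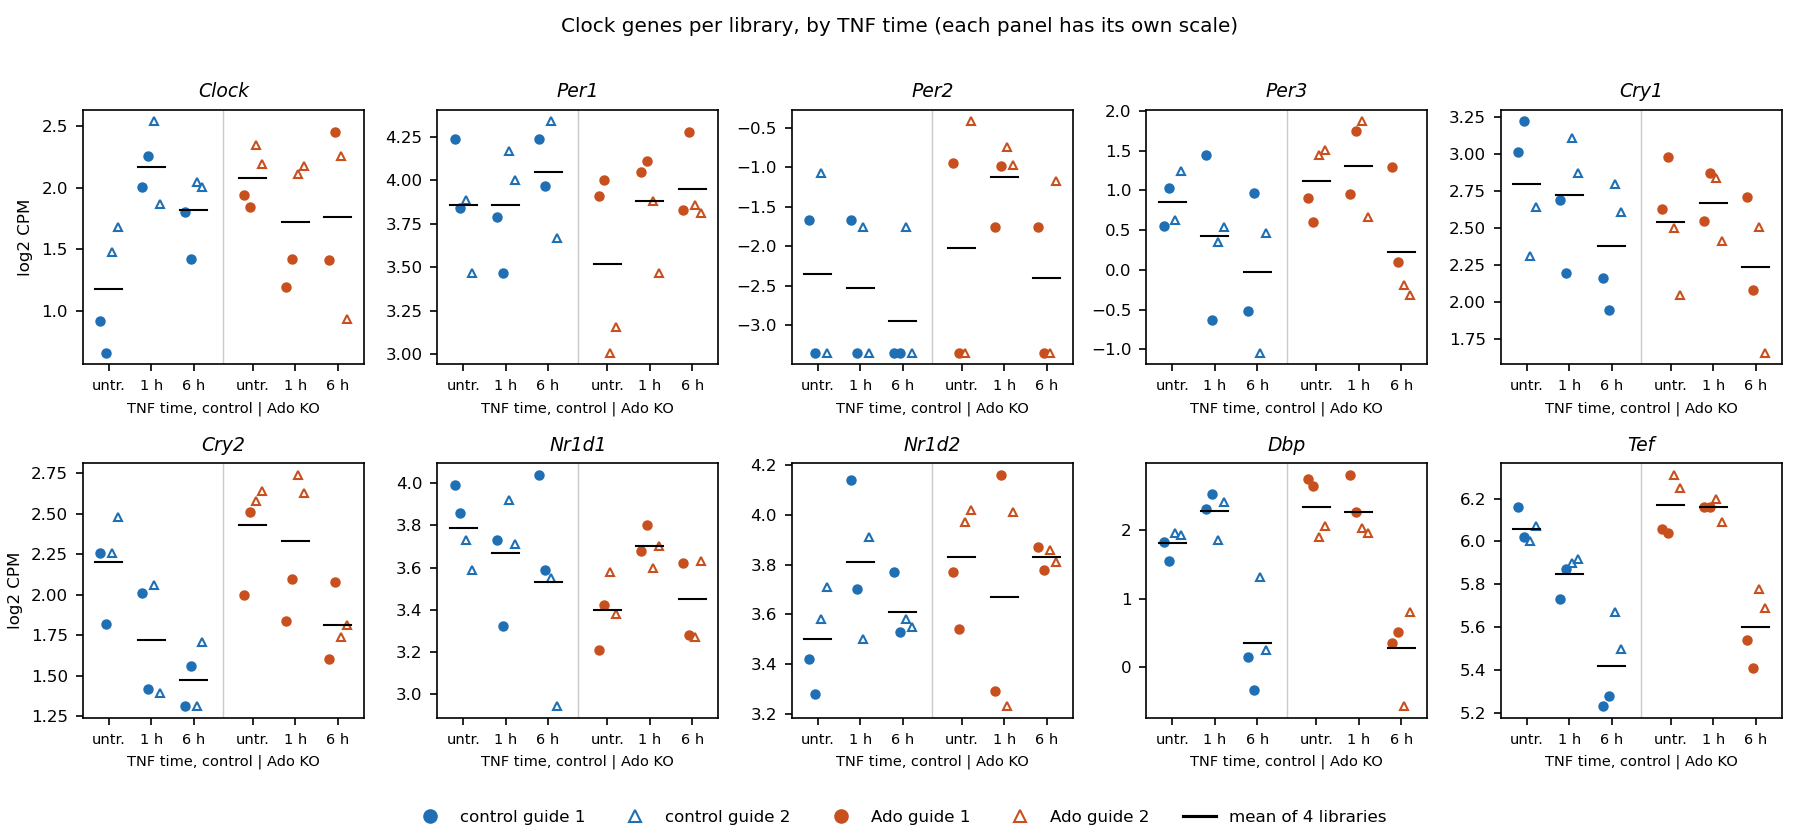
Level of each of the 10 genes (log2 CPM, own scale per panel) in every library of the 6 groups, control in blue and Ado KO in orange; circles are guide 1, triangles guide 2 and lines the mean of 4 libraries. The 6 h libraries of Dbp and Tef lie below all untreated libraries of their genotype, and those of Per1 and Nr1d2 do not.

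Dbp (GRCm38 chromosome 7, 45705088 to 45710203, plus strand) encodes the D-box binding protein, a PAR bZIP factor whose message is strongly rhythmic in many tissues. In untreated control cells it stood at 1.82, 1.54, 1.95 and 1.93 log2 CPM in libraries 1-1, 1-2, 2-1 and 2-2. At 1 h of TNF the values were 2.31, 2.52, 1.85 and 2.41, and at 6 h 0.15, -0.33, 1.31 and 0.25. The 1 h libraries overlapped the untreated ones, and all 4 libraries at 6 h were lower, with 2-1 the nearest to them. The Ado KO values were 2.74, 2.64, 1.89 and 2.05 untreated, 2.80, 2.26, 2.03 and 1.95 at 1 h and 0.35, 0.52, -0.57 and 0.80 at 6 h. Again the 1 h libraries overlapped and the 6 h libraries were all lower. The difference from untreated cells was 0.46 ± 0.32 at 1 h and -1.46 ± 0.32 at 6 h in control cells (SE). For Ado KO it was -0.07 ± 0.32 and -2.05 ± 0.32. By guide, the 6 h difference was -1.77 and -1.15 in control guides 1 and 2 and -2.25 and -1.85 in Ado guides 1 and 2. With control guide 2 alone, whose library 2-1 kept the highest 6 h value, Dbp no longer passed the threshold, at -1.15 ± 0.47.

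The end of Dbp overlaps another gene. All of the last 300 bases of Dbp lie in an exon of Sphk2, a sphingosine kinase gene on the opposite strand, and 539 exonic bases are shared in all. Whether the authors' counting used strand is not given in the sources used here, and without strand the tags of Dbp and Sphk2 cannot be told apart there. Sphk2 was at 4.68 ± 0.09 log2 CPM in untreated and 4.53 ± 0.18 in 6 h control cells (SD, n = 4), a difference of -0.15 ± 0.11 (SE; limma adjusted p = 0.392). Sphk2 in Ado KO cells fell from 4.89 ± 0.17 to 4.48 ± 0.10 (SD, n = 4), by 0.40 ± 0.11 (SE; adjusted p = 0.0228). On the log2 scale both differences were smaller than those of Dbp. In mean CPM, Sphk2 was at 25.6 untreated and 23.2 at 6 h in control cells and at 29.7 and 22.4 in Ado KO cells. Dbp was at 3.53 and 1.39 and at 5.19 and 1.28 CPM, so in tags the difference of Sphk2 was the larger in both genotypes. Among the endothelial and fibroblast markers, 1 of 4 passed at 6 h in each genotype, beside 18.0% of all genes in control and 6.44% in Ado KO cells. It was Pdgfrb, a growth factor receptor gene, with differences of -1.48 ± 0.35 in control and -1.54 ± 0.35 in Ado KO cells (SE; adjusted p = 0.00346 and 0.00391). Pecam1, Pdgfra and Dcn did not pass, and the median difference of the 4 was -0.67 in control and -0.41 in Ado KO cells. The summed level of the 4 markers was 20.6 to 25.5 CPM in untreated and 14.3 to 27.3 in 6 h control libraries, and 20.0 to 24.5 and 16.1 to 22.1 in those of Ado KO. The part of Sphk2 tags or of these markers in the lower Dbp level was not tested. In bulk RNA, fewer cells that express a gene and less RNA per cell cannot be told apart.

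Tef (chromosome 15, 81802421 to 81826863, plus strand) encodes thyrotroph embryonic factor, a PAR bZIP protein with the same target sequence as DBP. Its untreated values in control cells were 6.16, 6.02, 6.00 and 6.07 in libraries 1-1, 1-2, 2-1 and 2-2, followed by 5.73, 5.87, 5.90 and 5.92 at 1 h and 5.23, 5.28, 5.67 and 5.50 at 6 h. The 3 groups of control libraries did not overlap, in the order untreated, 1 h and 6 h. Tef in Ado KO cells was at 6.06, 6.04, 6.31 and 6.25 untreated, 6.16, 6.16, 6.20 and 6.09 at 1 h and 5.54, 5.41, 5.78 and 5.69 at 6 h. Here the 1 h libraries lay among the untreated ones and only the 6 h libraries stood apart. The differences from untreated were -0.21 ± 0.09 and -0.64 ± 0.09 in control cells and -0.01 ± 0.09 and -0.56 ± 0.09 in Ado KO cells (SE, at 1 h and 6 h). With each library centred on 17 housekeeping genes, the 6 h difference in Ado KO cells was -0.34 ± 0.12 and no longer passed the threshold. The centring moved the median of all genes at 6 h from -0.089 to 0.174 in control and from -0.0497 to 0.175 in Ado KO cells, and moved each 6 h difference up with it. The housekeeping genes were not all steady in control cells: at 6 h limma called 7 of the 17 there, 6 lower and 1 higher, beside 18.0% of all genes. In Ado KO cells it called 0, with 4 under an unadjusted p of 0.05, beside 6.44% of all genes called.

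Cry2 (chromosome 2, 92403646 to 92434043, minus strand) and Cry1 (chromosome 10, 85131700 to 85185064, minus strand) encode cryptochromes, which block CLOCK and BMAL1 together with the PER proteins. Cry2 stood at 2.26, 1.82, 2.26 and 2.48 in untreated control libraries 1-1, 1-2, 2-1 and 2-2, at 2.01, 1.42, 2.06 and 1.39 at 1 h and at 1.31, 1.56, 1.31 and 1.71 at 6 h. All 6 h libraries were below all untreated ones, while the 1 h libraries overlapped both. Cry2 values in Ado KO cells were 2.00, 2.51, 2.58 and 2.64 untreated, 1.84, 2.10, 2.74 and 2.63 at 1 h and 1.60, 2.08, 1.74 and 1.81 at 6 h. There the 6 h library 1-2 lay above the untreated library 1-1, so the groups overlapped. Cry2 in control cells at 6 h passed the threshold in 19 of 24 fits that each left out 1 library. The 5 libraries without which it did not are untreated 1-1, 2-1 and 2-2 and 6 h 1-1 and 2-1 of the control cells, and its difference ranged from -0.86 to -0.64 over the 24 fits. It also did not pass with housekeeping centring (-0.47), with protein-coding genes normalised again (-0.62), or with guide 1 (-0.61) or guide 2 (-0.86) alone. Cry1 was at -0.42 ± 0.25 and -0.30 ± 0.25 at 6 h in control and Ado KO cells (SE). Its 2 control guides differed in direction at 6 h, with -1.06 for guide 1 and 0.23 for guide 2, and with guide 1 only Cry1 passed the threshold.

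The Per genes encode the repressors that pair with the cryptochromes. Per1 (chromosome 11, 69095217 to 69109960, plus strand) lay between 3.01 and 4.34 log2 CPM in all 24 libraries, and its groups overlapped in each TNF comparison. Its differences were 0.00 ± 0.20 and 0.19 ± 0.20 in control cells and 0.35 ± 0.20 and 0.42 ± 0.20 in Ado KO cells (SE, at 1 h and 6 h). With housekeeping centring the 6 h value in Ado KO cells was 0.65 ± 0.20 and passed the threshold. Per3 (chromosome 4, 151003652 to 151044665, minus strand) was at 0.86 ± 0.33 in untreated and -0.03 ± 0.91 in 6 h control cells, and at 1.12 ± 0.44 and 0.22 ± 0.74 in Ado KO cells (SD, n = 4). The 6 h difference was -0.90 ± 0.46 and -0.89 ± 0.46 (SE), about as large as that of Cry2, but 6 h libraries reached 0.97 in control and 1.30 in Ado KO cells and overlapped the untreated ones. Per2 (chromosome 1, 91415982 to 91459324, minus strand) stood at the lowest value of the table in 11 of 24 libraries and reached at most -0.42, which is about 3 tags. A difference between groups in Per2 was not detectable at this depth.

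Clock (chromosome 5, 76209868 to 76304792, minus strand) encodes the activator and histone acetyltransferase of the loop. In control cells it was at 0.92, 0.66, 1.48 and 1.68 untreated, at 2.01, 2.26, 2.54 and 1.87 at 1 h and at 1.80, 1.42, 2.05 and 2.01 at 6 h. All 1 h libraries were above all untreated ones, and the 6 h libraries overlapped them. Clock in Ado KO cells was at 1.94, 1.84, 2.35 and 2.19 untreated, at 1.19, 1.42, 2.11 and 2.18 at 1 h and at 1.41, 2.45, 2.26 and 0.93 at 6 h, with overlap throughout. The differences were 0.99 ± 0.30 and 0.64 ± 0.30 in control and -0.35 ± 0.30 and -0.32 ± 0.30 in Ado KO cells (SE, at 1 h and 6 h). With housekeeping centring the 6 h value in control cells was 0.90 ± 0.32 and passed the threshold.

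Nr1d1 (chromosome 11, 98767932 to 98775333, minus strand) and Nr1d2 (chromosome 14, 18204054 to 18239127, minus strand) encode the heme-binding repressors REV-ERB alpha and beta. Nr1d1 shares 75 of its last 300 bases with an exon of Thra on the opposite strand, and without strand their tags cannot be told apart there. In untreated control cells Thra was at 12.1 and Nr1d1 at 13.9 mean CPM. The 6 h difference of Thra was -0.19 ± 0.24 in control and -0.10 ± 0.24 in Ado KO cells (SE; limma adjusted p = 0.63 and 0.888). The part of Thra tags in the level of Nr1d1 was not tested. At 6 h Nr1d1 differed from untreated cells by -0.26 ± 0.17 in control and 0.05 ± 0.17 in Ado KO cells, and Nr1d2 by 0.11 ± 0.18 and 0.00 ± 0.18 (SE). At 1 h Nr1d1 was at -0.13 ± 0.17 and 0.30 ± 0.17, and Nr1d2 at 0.32 ± 0.18 and -0.16 ± 0.18. The 1 h Ado KO libraries of Nr1d1, at 3.60 to 3.80, lay just above the untreated ones at 3.21 to 3.58, and the other 7 of these 8 comparisons overlapped. Both genes lay within 0.32 of their untreated level in either direction.

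**Figure D2:**
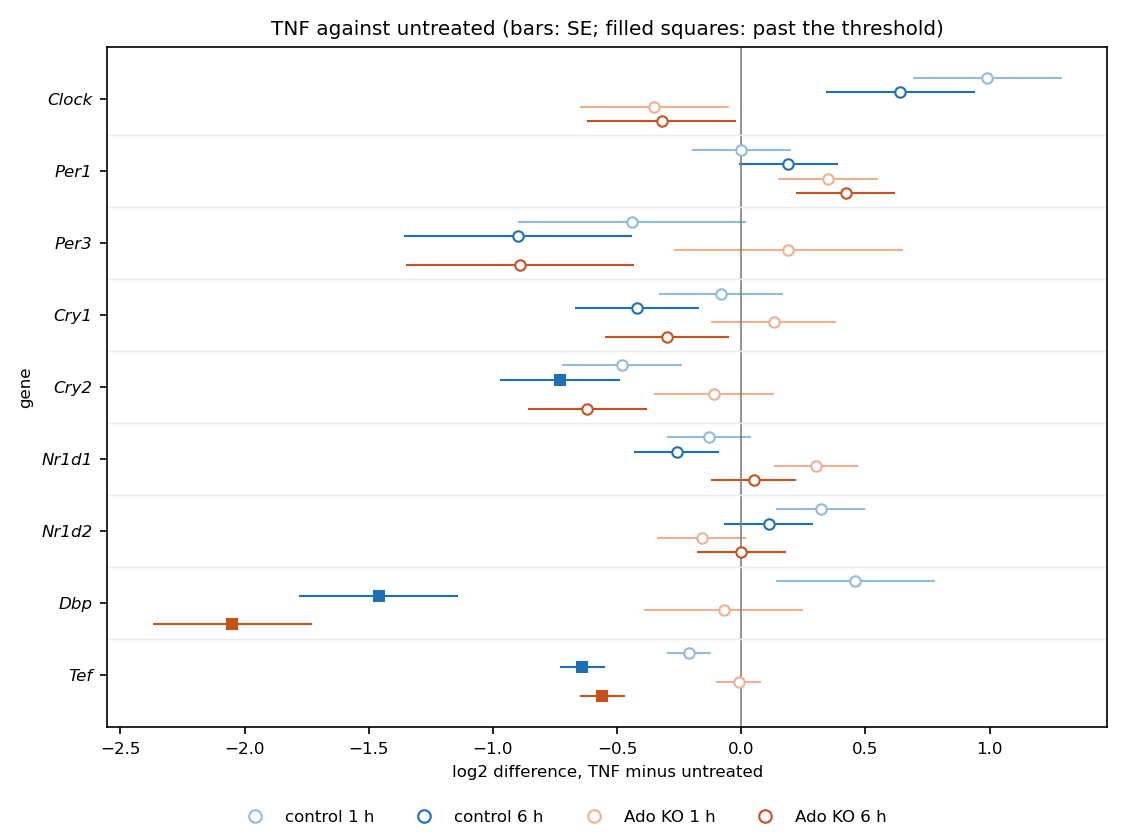
Log2 difference between TNF and untreated cells for the 9 genes that passed the low-value filter, with SE bars, in control cells (blue) and Ado KO cells (orange) at 1 h (pale) and 6 h (dark). Filled squares mark Dbp and Tef at 6 h in both genotypes and Cry2 at 6 h in control cells; all 5 lie to the left of 0.

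Counted over the 9 genes tested, 3 passed an adjusted p under 0.05 at 6 h in control cells (Cry2, Dbp and Tef, all lower), where limma called 18.0% of all 13272 genes. At 6 h in Ado KO cells 2 passed (Dbp and Tef, both lower), against 6.44% of all genes. At 1 h limma called 0 of the 9 in control cells, with 2 under an unadjusted p of 0.05, against 0.392% of all genes. At 1 h in Ado KO cells it called 0, with 0 unadjusted, against 0.256%. The choice of the genes used these contrasts, so these counts are a description and nothing is read from them or from the shares. The median difference of the 9 genes at 6 h was -0.42 in control cells and -0.32 in Ado KO cells, beside -0.09 and -0.05 over all genes, and at 1 h -0.08 and -0.01, beside -0.03 and 0.00.

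A difference between 2 genes within a library is unchanged by a shift of that whole library, though not by quantile normalisation, which the values appear to have had. Dbp minus Clock averaged 0.63 ± 0.32 in untreated, 0.10 ± 0.54 in 1 h and -1.47 ± 0.49 in 6 h control libraries (SD, n = 4). The 6 h control libraries lay between -1.76 and -0.74 and the untreated ones between 0.25 and 0.90. In Ado KO libraries it averaged 0.25 ± 0.65, 0.53 ± 0.86 and -1.49 ± 1.16 (SD, n = 4). Those at 6 h spread from -2.83 to -0.13, and the highest of them reached into the untreated range of -0.45 to 0.80. Dbp minus Tbp, a general transcription factor gene, gave -0.21 to 0.36 untreated and -2.36 to -1.06 at 6 h in control libraries, and -0.45 to 1.08 and -2.48 to -1.08 in Ado KO libraries. Against Tbp the 6 h and untreated libraries of both genotypes were apart. In control cells the mean of Dbp minus Tbp went from 0.11 ± 0.24 to -1.82 ± 0.55 (SD, n = 4). Dbp alone went from a mean of 1.81 to 0.35, a smaller change, so a higher Tbp at 6 h is part of it. Tef minus Clock averaged 4.88 ± 0.49 untreated and 3.60 ± 0.19 at 6 h in control cells, and 4.09 ± 0.10 and 3.84 ± 0.77 in Ado KO cells (SD, n = 4), so the Ado KO groups overlapped.

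**Figure D3:**
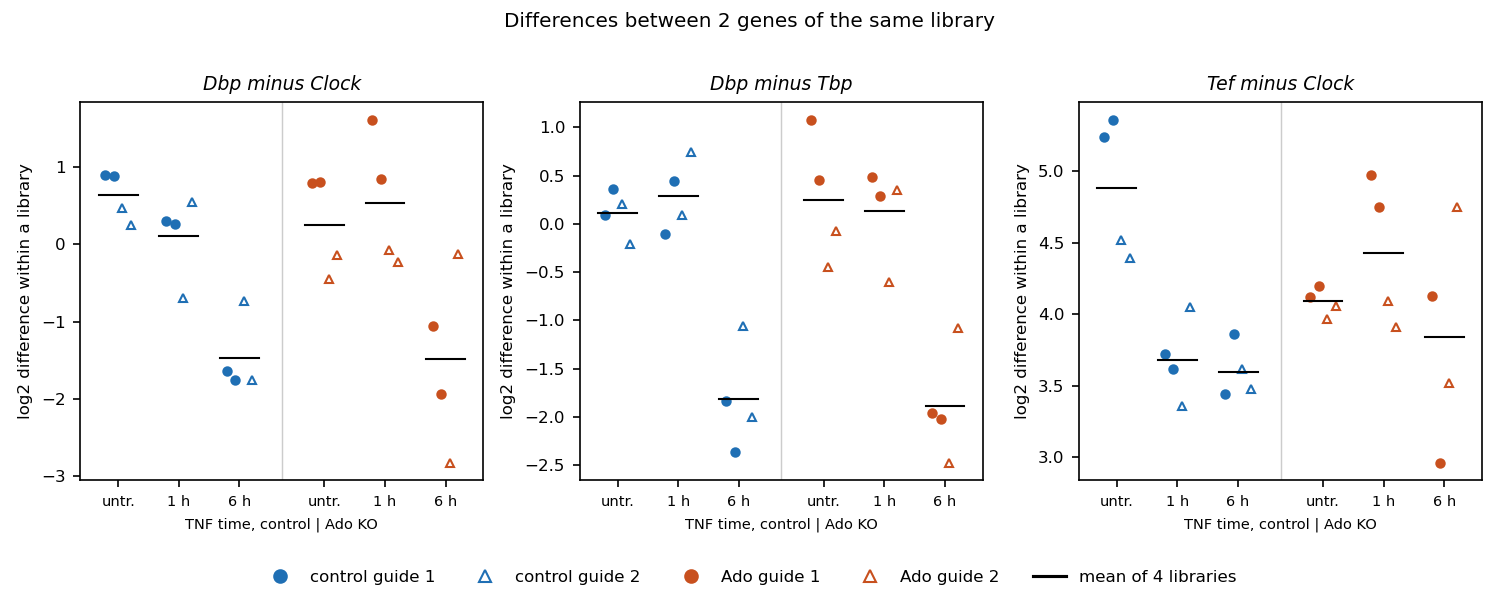
Log2 difference between 2 genes of the same library, for Dbp minus Clock, Dbp minus Tbp and Tef minus Clock, in the 6 groups (control blue, Ado KO orange; circles guide 1, triangles guide 2; lines are means of 4 libraries). Dbp minus Tbp is at -1.06 or below in all 8 libraries at 6 h and at -0.60 or above in the other 16.

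Cells with Ado guides were compared with those carrying control guides, and limma's fit over all 13272 genes called 0 of the 9 genes in each of 3 comparisons. In untreated cells 0 of 9 passed, with 2 under an unadjusted p of 0.05 and a smallest adjusted p of 0.326, against 0.249% of all genes called. At 1 h of TNF 0 of 9 passed, with 2 unadjusted and a smallest adjusted p of 0.119, against 1.06%. At 6 h 0 of 9 passed, with 0 unadjusted and a smallest adjusted p of 0.493, against 1.02%.

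Dbp in Ado KO cells differed from control by 0.52 ± 0.33 untreated (SE; limma adjusted p = 0.718), with 95% limits of -0.13 and 1.17. At 1 h the difference was -0.01 ± 0.33 (adjusted p = 0.992) and at 6 h -0.07 ± 0.33 (adjusted p = 0.972). Tef had the smallest adjusted p of the 9 genes. At 1 h its 4 Ado KO libraries, at 6.09 to 6.20, were all above the 4 control libraries at 5.73 to 5.92, a difference of 0.30 ± 0.10 (SE; adjusted p = 0.119). With guide populations as fixed terms Tef passed the threshold at 0.30, and with housekeeping centring at 0.48. Clock was higher in all 4 untreated Ado KO libraries (1.84 to 2.35) than in the 4 control ones (0.66 to 1.68), by 0.90 ± 0.32, which did not pass (SE; adjusted p = 0.326). Nr1d1 was lower in all 4 untreated Ado KO libraries, at -0.39 ± 0.18, and did not pass either (SE; adjusted p = 0.527). Cry2 at 1 h differed by 0.61 ± 0.25 (SE; adjusted p = 0.229), and Per3 at 1 h by 0.88 ± 0.48 (adjusted p = 0.372). Each adjusted p here and below is from limma with Benjamini-Hochberg adjustment over all genes tested.

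**Figure D4:**
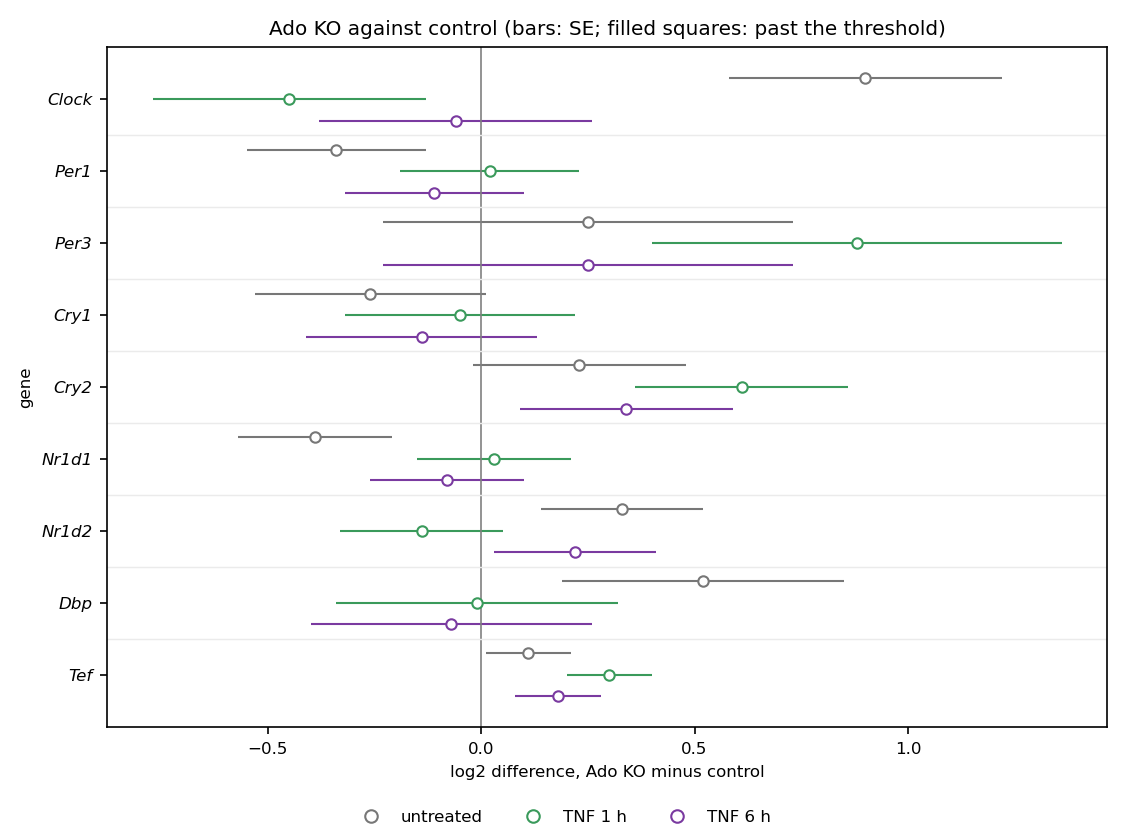
Log2 difference between Ado KO and control cells for the 9 genes, with SE bars, untreated (grey), at 1 h (green) and at 6 h of TNF (purple). Every symbol is open, as 0 of the 9 genes passed the threshold in any of the 3 comparisons; Clock untreated (0.90) and Per3 at 1 h (0.88) lie farthest from 0.

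Whether the response to TNF differed between the genotypes was tested with an interaction term. At 1 h limma called 0 of the 9 genes, with 1 unadjusted, and 0 of all genes (0.00%), of which 1304 were under an unadjusted p of 0.05. At 6 h it called 0 of the 9 genes, with 1 unadjusted, against 0.347% of all genes. The interaction of Dbp at 6 h was -0.59 ± 0.45 (SE; adjusted p = 0.85), so the larger fold in Ado KO cells was not shown to differ from that in control cells. For Tef it was 0.08 ± 0.13 (adjusted p = 0.947) and for Cry2 0.11 ± 0.34 (adjusted p = 0.977). Clock had the largest interactions, -1.34 ± 0.43 at 1 h and -0.95 ± 0.43 at 6 h (SE; adjusted p = 0.441 and 0.704), and neither passed.

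The 2 guides of a genotype gave the size of differences that the genotype does not account for. Over the 3 treatments, guide 2 differed from guide 1 in 0 of the 9 genes in control cells, with 0 unadjusted, against 4.61% of all genes called by limma. Between the Ado guides it was 0 of 9, with 3 unadjusted, against 0.158% of all genes. The largest were Dbp at -0.52 ± 0.25 and Per1 at -0.50 ± 0.13 in Ado KO cells (SE; adjusted p = 0.555 and 0.179). The guide difference of Dbp was thus as large as its genotype difference in untreated cells.

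Of 7 other transcription factor genes of the loop that were tested, 3 fell and 0 rose at 6 h in control cells, where 18.0% of all genes were called in either direction. The median difference was -0.70, beside -0.09 over all genes. Arntl, the gene of BMAL1, fell from 1.09 ± 0.18 to -0.11 ± 0.52 log2 CPM (SD, n = 4), by 1.21 ± 0.40 (SE; adjusted p = 0.0364). Its untreated control libraries were at 1.19, 0.85, 1.09 and 1.25 and its 6 h libraries at -0.52, -0.33, -0.25 and 0.64, with no overlap. At 1 h Arntl was at -1.21 ± 0.40 in control cells (SE), which did not pass (adjusted p = 0.165). Ciart, which encodes a repressor of CLOCK and BMAL1, fell by 1.31 ± 0.45 (SE; adjusted p = 0.0403), from 1.31 to 2.13 untreated to -0.99 to 1.71 at 6 h, where library 2-2 overlapped the untreated ones. Rorb, a nuclear receptor gene whose family activates Arntl, fell by 0.70 ± 0.18 (SE; adjusted p = 0.0061), from 3.71 to 4.03 untreated to 2.59 to 3.57. Arntl2, a paralog of Arntl, was at 0.37 ± 0.40 (SE; adjusted p = 0.562), and Nfil3, which competes with DBP for the D-box, at -0.08 ± 0.46 (adjusted p = 0.93). Bhlhe41, also of this list, was at -1.02 ± 0.38 and did not pass (SE; adjusted p = 0.0617).

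Arntl and Ciart rest on about 2 to 25 tags per library, and their calls were lost without single libraries. Arntl passed in 17 of 24 fits that each left out 1 library (-1.45 to -1.08) and not without any 1 of the 4 untreated or of 6 h 1-1, 1-2 and 2-1 of the control cells. Ciart passed in 18 of 24 (-1.75 to -0.89) and not without untreated 1-1, 1-2 or 2-2 or 6 h 1-1, 1-2 or 2-1. Rorb passed in 24 of 24 (-0.83 to -0.51), and with housekeeping centring none of the 3 passed. In Ado KO cells 0 of the 7 passed at 6 h, with 1 unadjusted, and Arntl was at -0.63, Ciart at -0.25 and Rorb at -0.30. The 1 unadjusted gene was Bhlhe41, at -0.83 ± 0.38 (SE; adjusted p = 0.244). Its 6 h Ado KO libraries were all below the untreated ones. The interactions at 6 h were 0.57 ± 0.57 for Arntl, 1.06 ± 0.63 for Ciart and 0.40 ± 0.25 for Rorb (SE; adjusted p = 0.899, 0.8 and 0.812), so a difference between the genotypes was not shown. At 1 h 0 of the 7 passed in either genotype, with 2 unadjusted in control and 1 in Ado KO cells. Bhlhe40, an E-box binding repressor gene, was closest, at 0.52 ± 0.12 in control cells (SE; adjusted p = 0.0501).

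Among 16 genes of clock cofactors, 3 fell and 1 rose at 6 h in control cells, and in Ado KO cells 1 fell and 0 rose. These counts lie near the 18.0% and 6.44% of all genes called in the same comparisons. Id2, which encodes an inhibitor of basic helix-loop-helix factors that can bind CLOCK and BMAL1, fell by 0.97 ± 0.21 in control and fell by 1.50 ± 0.21 in Ado KO cells (SE; adjusted p = 0.00143 and 5.02e-06). Its untreated control libraries were at 4.92 to 5.57 and its 6 h ones at 3.61 to 4.85, and the Ado KO libraries went from 5.44 to 5.97 to 3.79 to 4.68, both without overlap. Timeless fell by 0.44 in control cells, and the histone demethylase gene Kdm5a rose by 0.40 (adjusted p = 0.0113 and 0.0292). Of 17 kinase, ligase and phosphatase genes that set the stability of clock proteins, Ppp1ca fell in control cells at 6 h by 0.24 (adjusted p = 0.0424), and 0 passed in Ado KO cells, with 3 unadjusted, so in neither genotype did the list exceed those shares. The medians of these 2 lists at 6 h were 0.00 and -0.03 in control cells and -0.09 and -0.03 in Ado KO cells, close to those of all genes.

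Among 10 clock-controlled output genes outside the PAR bZIP family, the direction was mixed. Klf10, a Krüppel-like factor gene, rose at 1 h by 0.66 ± 0.15 in control and 0.71 ± 0.15 in Ado KO cells (SE; adjusted p = 0.0415 and 0.0238), and in control cells it passed in 14 of 24 fits that left out 1 library (0.59 to 0.74). The libraries without which it did not pass are untreated 1-1, 1-2 and 2-1, 1 h 1-1, 1-2 and 2-1 and 6 h 2-2 of the control cells, and untreated 2-2, 1 h 1-1 and 6 h 1-1 of the Ado KO cells. Klf10 in Ado KO cells passed in 18 of 24 (0.65 to 0.79), and not without untreated 1-1, 2-1 or 2-2 or 1 h 1-1, 2-1 or 2-2 of those cells. Pnp, a purine nucleoside phosphorylase gene, rose at 6 h by 0.62 ± 0.11 and 0.49 ± 0.11 (SE; adjusted p = 0.000163 and 0.00452). Lonrf3 fell at 6 h in control cells by 0.78 ± 0.27 (SE; adjusted p = 0.0415) and passed in 18 of 24 fits that left out 1 library, not without untreated 1-1, 1-2 or 2-2 or 6 h 1-1, 2-1 or 2-2 of those cells. In all, 1 of the 10 rose and 1 fell at 6 h in control cells, near the 18.0% of all genes, with a median of -0.02, and 1 rose in Ado KO cells, against 6.44%. Klf10 was the 1 gene of the list called at 1 h in each genotype, against 0.392% and 0.256% of all genes.

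2 signals that reset Per1 in many cells were read through lists of their target genes. Of 10 CREB-responsive genes, Sik1, a kinase gene of the clock's light response, rose at 6 h by 1.77 ± 0.23 in control and 1.58 ± 0.23 in Ado KO cells (SE; adjusted p = 9.56e-07 and 1.13e-05). Pde4b, a cAMP phosphodiesterase gene, fell by 2.27 ± 0.64 in control and fell by 2.22 ± 0.64 in Ado KO cells (SE; adjusted p = 0.0129 and 0.0274), with 1 library per 6 h group at the lowest value of the table. Without 6 h library 1-2 of the control cells Pde4b no longer passed there, and without untreated 1-2, untreated 2-2 or 6 h 1-1 of the Ado KO cells it did not pass in those. The left-out values ran from -2.80 to -1.42 in control and from -2.65 to -1.38 in Ado KO cells. Of 9 glucocorticoid-responsive genes, Errfi1 rose by 1.41, Cebpd fell by 0.84 and Mt1 fell by 0.35 at 6 h in control cells (adjusted p = 0.00752, 0.0326 and 0.000664). In Ado KO cells Cebpd fell by 1.05 and Mt1 fell by 0.25 (adjusted p = 0.0145 and 0.026), and 0 of the 9 rose. These are 2 of 10 and 3 of 9 genes in control cells, beside 18.0% of all genes, and 2 of 10 and 2 of 9 in Ado KO cells, beside 6.44%. Between the genotypes at 1 h of TNF, Mt2 was the 1 gene of these lists that limma called, beside 1.06% of all genes. Its difference was -0.35 ± 0.08 in Ado KO against control cells (SE; adjusted p = 0.0152).

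**Figure D5:**
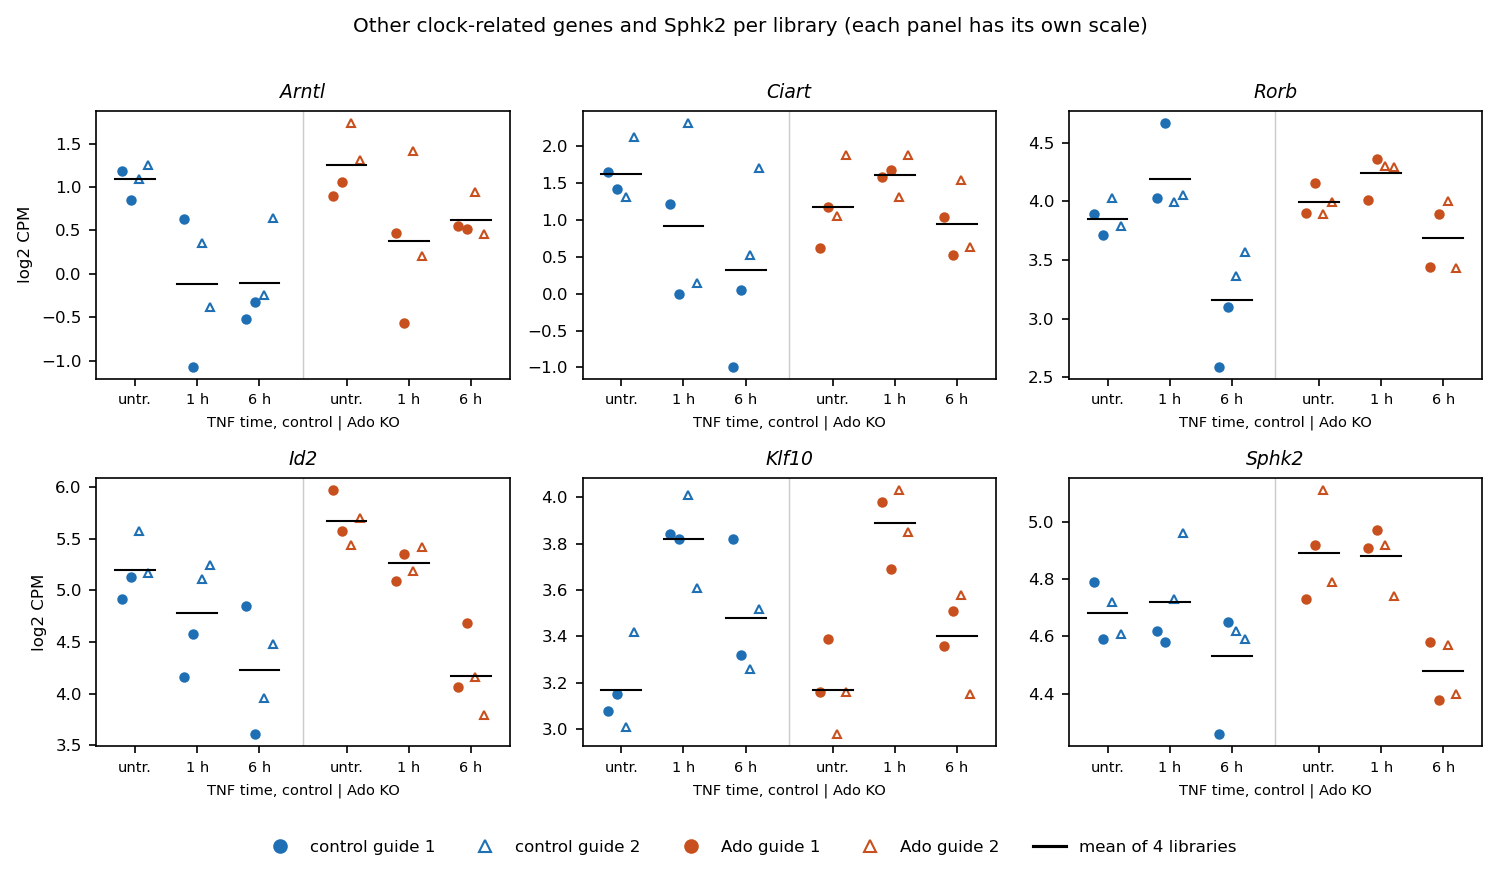
Level (log2 CPM, own scale per panel) of Arntl, Ciart, Rorb, Id2, Klf10 and Sphk2 in every library, drawn as for the 10 clock genes (control blue, Ado KO orange; circles guide 1, triangles guide 2; lines are means of 4 libraries). Id2 is lower at 6 h in both genotypes, Klf10 is higher at 1 h, and Sphk2 spans 4.26 to 5.11 over all groups.

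The genes whose pattern over the 24 libraries was most like that of Dbp were Chst1 (Pearson r = 0.898), Narf (0.873), Ctdsp2 (0.872), Midn (0.848) and Sertad3 (0.847). All 5 were lower at 6 h in both genotypes, with log2 differences of -1.78 and -2.02 for Chst1, -1.21 and -1.11 for Narf, -0.39 and -0.59 for Ctdsp2, -0.57 and -0.57 for Midn and -1.20 and -0.99 for Sertad3 in control and Ado KO cells. After the 6 group means were subtracted, r was between 0.0908 for Chst1 and 0.378 for Narf, so the likeness lies mostly in the group means that the libraries share. Most like Per1 were Vgll4 (0.712), Oxnad1 (0.653), Ttc1 (0.643), Pip5k1a (0.633) and Plk3 (0.631), with r of 0.529 to 0.662 after the group means were subtracted. Among the 9 genes themselves, Dbp and Tef correlated at 0.76, Cry2 and Tef at 0.69 and Per3 and Cry2 at 0.62 over the 24 libraries. Without the group means these were 0.04, -0.01 and 0.28. Dbp and Clock correlated at 0.02. The correlations describe libraries that share groups and normalisation.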

How the data were processed

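The authors deposited 1 table of log2 CPM values per gene for 24 libraries made with a QuantSeq 3′ kit, per the labels' protocols. The unit was inferred from the values: unlogged values summed to 998900 to 999014 per library, and the extremes of every library were the same (-3.349 and 17.04), as after quantile normalisation. Per the submitters' processing notes, FastQC, cutadapt 1.7, HISAT2, featureCounts (Subread) and limma were used with GRCm38 (mm10), with the order and the strand setting not given in the sources used here. There were 0 further columns of per-sample values.

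Values were used as deposited. Genes that reached a log2 value of 0 in at least 4 libraries entered the fit (13272). Limma 3.58.1 (R 4.3.3, statmod 1.5.0) fitted 6 group means over all 24 libraries with a random block for guide population (correlation 0.0485) and a variance trend. The threshold was a two-sided p under 0.05 after Benjamini-Hochberg adjustment across the fitted genes. Guides of 1 genotype were compared in a fit of guide by treatment means. The fit was tested on simulated data. Same-numbered replicates of 1 guide did not deviate together between treatments (correlations -0.158 to 0.0543), so the numbers were not used as pairs. For control guide 2 at 1 h, titles and column names give opposite numbers, and numbers follow the titles.

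The 10 genes, the other lists and the markers were chosen with earlier results of these data known. Named were the 10 genes; of each other list up to 4 genes with the smallest p over the TNF comparisons and called genes against their list's direction; and the 5 genes most correlated with Dbp and with Per1, without unnamed models. Sphk2, Thra, Mt2, Arntl2, Nfil3 and Bhlhe41 were added outside that rule, after values were seen. Positions are from GENCODE M21 and promoters from RefSeq. Plots used matplotlib 3.10.9 (Python 3.11.15). Alternatives were other filters, blocks, scalings and variance settings, single guides and leaving out each library. The values of 1 further cofactor gene, counted in its list, are not reported here.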

Additional observations from a re-analysis of the deposited data

Results flagged for a closer look

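In groups of 4 libraries, the gap between the highest or lowest library and its nearest neighbour was set against Dixon's critical value. Of 60 groups of the 10 genes 2 exceeded it, and chance gives about 1 in 20. For Per1 in Ado KO cells at 6 h, library 1-2 stood at 4.28, above 3.81 to 3.86 for the others. Per2 in control cells at 6 h was at -1.76 in library 2-1 and at the lowest value of -3.35 in the other 3, a gap of about 1 tag. With 3 libraries tied, any other value in the last one exceeds the critical value. The rate of 1 in 20 does not apply to this group, and its flag is no test.

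At 1 h of TNF the mean change of Clock had opposite signs in control and Ado KO cells. Set against the mean of the untreated libraries of the same guide, all 4 control libraries at 1 h were higher, with a mean change of 0.99, and all 4 Ado KO libraries were lower, with a mean change of -0.35 and a lowest value of -0.70. The interaction of -1.34 ± 0.43 (SE) had an adjusted p of 0.441 in limma and did not pass. Between the genotypes, Ado KO minus control was 0.90 ± 0.32 untreated and -0.45 ± 0.32 at 1 h (SE; limma adjusted p = 0.326 and 0.532).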

How the results depend on the processing

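Apart from the fits that left out 1 library, given at the end of this paragraph, the 9 tested genes kept their counts of calls except in 4 cases. At 6 h in control cells 1 gene passed with guide 2 only and 2 with protein-coding genes normalised again (without Cry2), in place of 3. Equal counts could hold different genes: housekeeping centring lost Cry2 and gained Clock at 6 h in control cells and lost Tef and gained Per1 in Ado KO cells, and guide 1 only lost Cry2 and gained Cry1 in control cells. In Ado KO against control at 1 h, 1 gene passed (Tef, with differences of 0.24 to 0.48 over the alternatives) with guide populations as fixed terms and 1 with housekeeping centring, in place of 0; the cause was not tested. From untreated to 6 h control cells Dbp minus Clock went from 0.63 to -1.47, and Dbp minus Hprt from -2.87 to -4.52, a smaller change of -1.65. Clock itself was 0.64 ± 0.30 (SE) higher at 6 h in these cells, which is part of the change against Clock. No further cause was tested. With guide 1 only, Lonrf3 at 6 h in Ado KO cells was at 0.10, the 1 reversed value. Among the other named genes 71 values lost their call, those of Id2 in control cells and Pnp in Ado KO cells with guide 1 only and of Rorb with guide 2 only among them. Leaving out single libraries gave 2 or 3 of the 9 genes called at 6 h in control cells and 2 in Ado KO cells, and 0 in the other comparisons.

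With a replicate block (guide and replicate number) the counts of the 9 genes were the same, at 3 and 2 at 6 h, and over all genes 2261 in place of 2392 and 828 in place of 855 were called. It changed no call among the 9 genes. The range of Dbp over the fits that left out 1 library was -1.78 to -1.24 in control and -2.26 to -1.78 in Ado KO cells, and that of Tef -0.72 to -0.58 and -0.61 to -0.50.

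Counts over all genes moved by over 1.5 times in some settings, in the order TNF at 1 h and 6 h in control cells, TNF at 1 h and 6 h in Ado KO cells, genotype untreated, at 1 h and at 6 h, and interaction at 6 h. They were 52, 2392, 34, 855, 33, 141, 135 and 46 as reported. With guide populations as fixed terms the 1 h counts were 216 and 57, the genotype counts 132, 609 and 324 and the interaction 70. With housekeeping centring the genotype counts were 6, 496 and 66. With protein-coding genes normalised again, TNF at 6 h in control cells gave 1416, genotype at 1 h and 6 h 90 and 39, and the interaction 0. Without the variance trend the genotype counts were 6, 43 and 58 and the interaction 30. With guide 1 only the TNF counts were 187, 1485, 16 and 409, the genotype counts 56, 515 and 87 and the interactions 9 at 1 h and 27 at 6 h. With guide 2 only, TNF at 6 h in control cells gave 839 and genotype in untreated cells 150. Over the fits that left out 1 library the ranges were 31 to 116, 1581 to 2737, 26 to 44, 688 to 988, 11 to 62, 30 to 434, 58 to 213 and 27 to 53, and 0 to 38 for the interaction at 1 h. The lowest counts at 6 h and in the 6 h interaction came without control 6 h library 1-1 (1581, 58 and 27), and 434 and 38 without Ado KO 1 h library 2-2. Low depth limits Per2, Per3, Clock, Arntl, Ciart and, at 6 h, Dbp most. At 6 h Dbp rests on about 4 to 12 tags per control library and 3 to 8 per Ado KO library.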
